A study of Mus musculus with 11 samples.

Results

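miR-26a and miR-26b were the 2 members of the miR-26 family among 334 mouse miRNAs on a custom array, and every array spot whose annotation named mmu-miR-26a or mmu-miR-26b was used, 8 of 1336 plus-strand mouse spots, 4 for each. The arrays came from mammary glands of pregnant females and from primary mammary tumors of females. Normal glands came from FVB mice (2 arrays), Balb/C mice (3 arrays) and FVB129B6 mice (3 arrays). The 3 C3(1)/Tag tumors were from FVB mice that carry the SV40 T antigen under the C3(1) promoter, so their strain is that of the FVB glands but their tissue is not, and their age is not given in the sources used here. The glands and tumors are bulk tissue, so fewer cells of a type and less RNA per cell cannot be told apart. No label ties the arrays of a group to separate animals, and 2 Balb/C titles differ only in L and R, so they could be glands of 1 mouse. P-values therefore measure the spread between arrays.

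A mature miRNA guides the silencing complex to messenger RNAs that pair with its seed, bases 2 to 8 counted from the 5′ end. The miR-26 family is broadly expressed in adult tissues. It is known to repress growth and chromatin regulators such as the histone methyltransferase Ezh2. The family's genes lie within genes of small C-terminal domain phosphatases and are usually transcribed with them. In RefSeq (GRCm38.p6), miR-26a has 2 genes with one mature sequence, at chr9:119031811-119031832 inside Ctdspl and at chr10:126995543-126995564 inside Ctdsp2, and miR-26b has 1, at chr1:74394324-74394344 inside Ctdsp1, all on the plus strand. An array signal for miR-26a can therefore come from either gene. The mature sequences are shown because both members share the whole seed, given in capitals, and differ only outside it:

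miR-26a: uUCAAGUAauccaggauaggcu
miR-26b: uUCAAGUAauucaggauaggu

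Over 21 positions compared from the 5′ end, 19 were identical and 2 differed, C11U and C21U, each written as the base of miR-26a, its position and the base of miR-26b. Of the 334 miRNAs on the array, only these 2 had a probe holding the seed complement TACTTGA. The probes are shown because their likeness limits how far the signals can be kept apart. Each line gives the stretch of the deposited probe that pairs with the miRNA, written 5′ to 3′, with the seed complement in capitals:

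probe of miR-26a: gcctatcctggatTACTTGAa
probe of miR-26b: aacctatcctgaatTACTTGAa

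The stretch of the first paired with 21 of the 22 bases of miR-26a. That of the second paired with all 21 bases of RefSeq's miR-26b and held 1 more base. Over the whole probes, miR-26a and miR-26b were 4 base edits apart. The next most similar probe to that of miR-26a lay 9 edits away, and the next to that of miR-26b lay 8 edits away. No other miRNA met the limit of 4 edits, and how much each probe takes up the other member was not measured.

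Signals were read from the green channel, which the labels give to the Hy3 dye. A level is the log2 of a spot's green intensity minus the median of its array over the 1336 spots, averaged over the spots of a miRNA without outlier spots, so 0 is the median of an array. The gland arrays lay on 1 slide and the tumor arrays on another that was extracted with another program version. Among the 334 miRNAs, 209 to 262 were well above background on a gland array and 15 to 64 on a tumor array. FVB arrays had median spot intensities of 188.5 and 245.5, against 508 to 671.5 for the other glands, and the FVB arrays had a column of the slide to themselves.

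In the glands, miR-26a and miR-26b were strong signals. All 32 spots of each were called well above background on the 8 gland arrays, and none was saturated. Before background subtraction, the median pixel signal of a miR-26a spot was 7532 to 20954 and that of a miR-26b spot 988 to 8048. The highest negative control of any gland array stood at 122. In the C3(1)/Tag tumors all 12 spots of each member were called not well above background. There, signals ran from 86 to 103.5 for miR-26a and from 84.5 to 100 for miR-26b, and no spot reached the highest negative control of its array, 105 to 113.

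**Figure D1:**
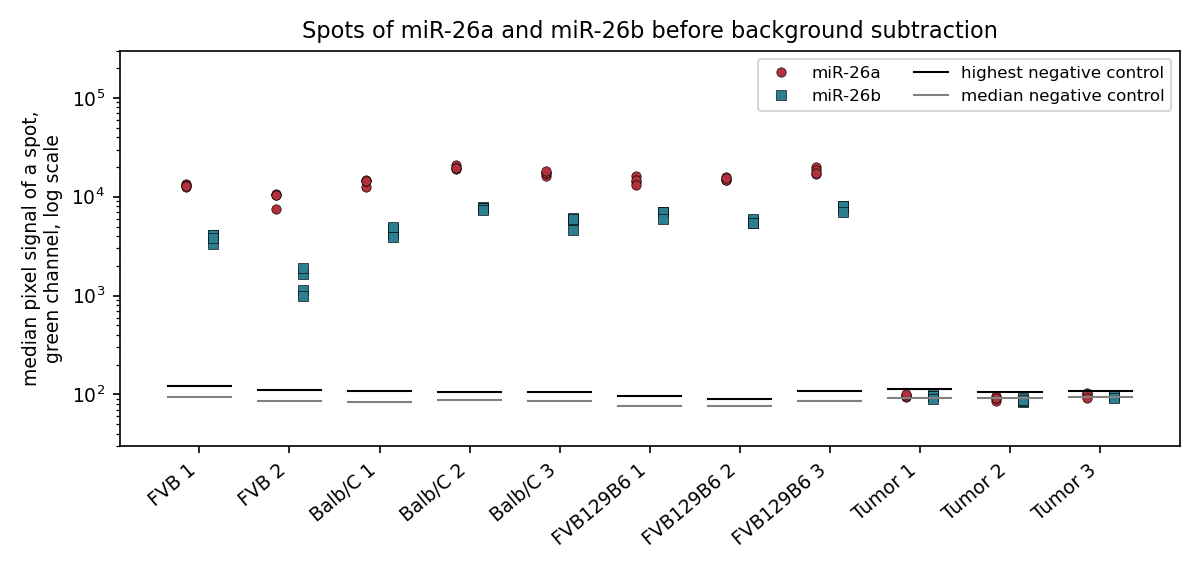
Median pixel signal of each miR-26a spot (circles) and miR-26b spot (squares) in the green channel before background subtraction, on a log scale, for the 11 arrays. Horizontal lines give the median and the highest negative control of each array. On the gland arrays all spots lie far above the controls, and on the tumor arrays all lie below the highest control.

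miR-26a had levels of 8.25 and 8.29 on the FVB arrays. On the Balb/C arrays its levels were 7.34, 7.74 and 7.34. On the FVB129B6 arrays they were 7.25, 7.25 and 7.42. Both FVB arrays were above all 6 arrays of the other strains, and the levels of Balb/C and FVB129B6 overlapped. The mean of FVB was 8.27 ± 0.02 (SD, n = 2). Balb/C had a mean of 7.47 ± 0.23 (SD, n = 3) and FVB129B6 one of 7.30 ± 0.10 (SD, n = 3). Groups set apart in this direction were common on these arrays, with 45.2% of 261 miRNAs lower on every Balb/C array and 49% lower on every FVB129B6 array than on both FVB arrays.

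miR-26b had levels of 6.38 and 5.51 on the FVB arrays. On the Balb/C arrays its levels were 5.69, 6.19 and 5.76. On the FVB129B6 arrays they were 6.14, 5.81 and 6.14. The FVB arrays held both the highest and the lowest of the 8 levels, and all 3 strains overlapped. The mean was 5.95 ± 0.62 (SD, n = 2) for FVB, while Balb/C had 5.88 ± 0.27 (SD, n = 3) and FVB129B6 had 6.03 ± 0.19 (SD, n = 3). Spots of miR-26b on FVB replicate 2 also scattered most, with an SD of 0.40 on the log2 scale against 0.03 to 0.20 on the other gland arrays, so this array is the least precise for miR-26b.

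**Figure D2:**
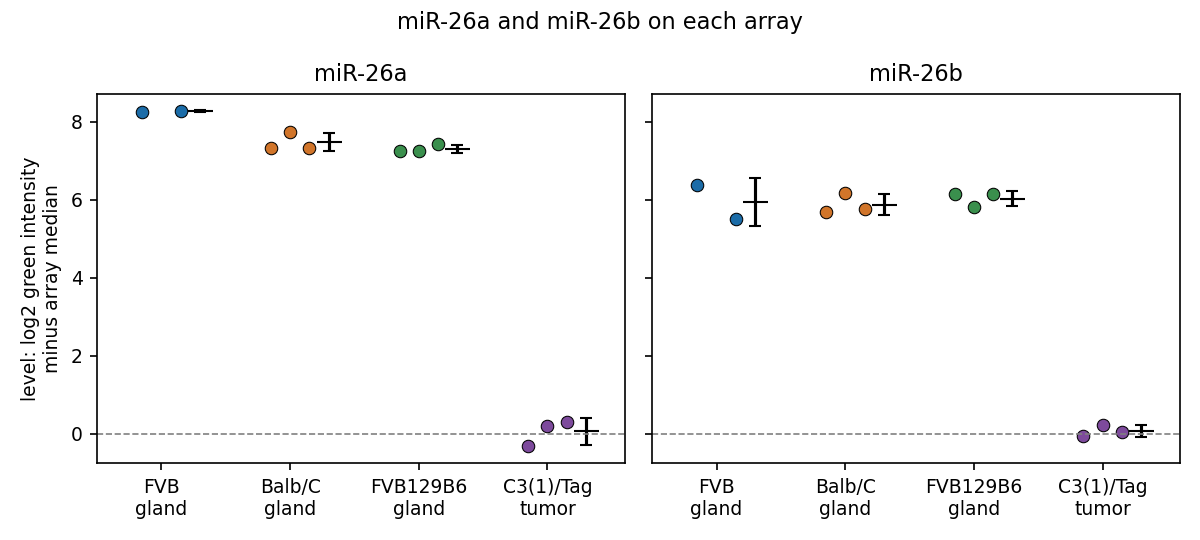
Level of miR-26a and miR-26b (log2 green intensity minus array median) on each array, with the group mean and SD beside the points and a dashed line at the array median. miR-26a is higher on both FVB arrays than on the other glands, miR-26b overlaps among strains, and both sit near 0 in the tumors, where they were not well above background.

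The study compared strains because its tumor models were made on different backgrounds. The fit covered 261 miRNAs that stood well above background on 3 or more gland arrays. There limma's moderated F-test with Benjamini-Hochberg adjustment called a strain difference at an adjusted p under 0.05 for 46% of miRNAs. miR-26a was called (adjusted p = 0.0103, limma F-test) and miR-26b was not (adjusted p = 0.872, limma F-test). With 1 of 2 members called, the share is near the background.

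Relative to FVB glands, miR-26a had a log2 difference in Balb/C glands that came to -0.80 (limma, standard error 0.18, adjusted p = 0.0129) and in FVB129B6 glands to -0.97 (limma, standard error 0.18, adjusted p = 0.00563), lower in both. These comparisons share the FVB arrays. In the former, 37.9% of the 261 miRNAs were called, 32.2% as lower. In the latter it was 39.5%, 31.4% as lower. The corresponding differences of miR-26b were -0.07 (95% interval -0.75 to 0.61, adjusted p = 0.877, limma) and 0.09 (95% interval -0.60 to 0.77, adjusted p = 0.821, limma). Neither was called. The 95% intervals of miR-26a, -1.22 to -0.37 and -1.39 to -0.54, overlapped those of miR-26b, and all share the FVB arrays and the scaling.

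Between Balb/C and FVB129B6 glands, where 3.45% of miRNAs were called, neither member was. The log2 difference was 0.17 for miR-26a (95% interval -0.21 to 0.55, adjusted p = 0.661, limma) and -0.15 for miR-26b (95% interval -0.76 to 0.46, adjusted p = 0.823, limma). In the order of the levels of miR-26a, FVB was therefore apart from Balb/C, and Balb/C did not differ from FVB129B6 beyond the spread. For miR-26b no neighbours in the order did.

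The median over all 261 tested miRNAs was itself below 0, at -0.48 for Balb/C minus FVB and -0.39 for FVB129B6 minus FVB. Relative to that median, miR-26a was -0.32 and -0.58, and miR-26b was 0.41 and 0.48, so the 2 members fell on opposite sides of it in both comparisons. In Balb/C minus FVB, 79 of the 261 differences were lower than that of miR-26a and 87 were higher than that of miR-26b. In FVB129B6 minus FVB, these counts were 57 and 69. Both members thus lay within the bulk of the differences.

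**Figure D3:**
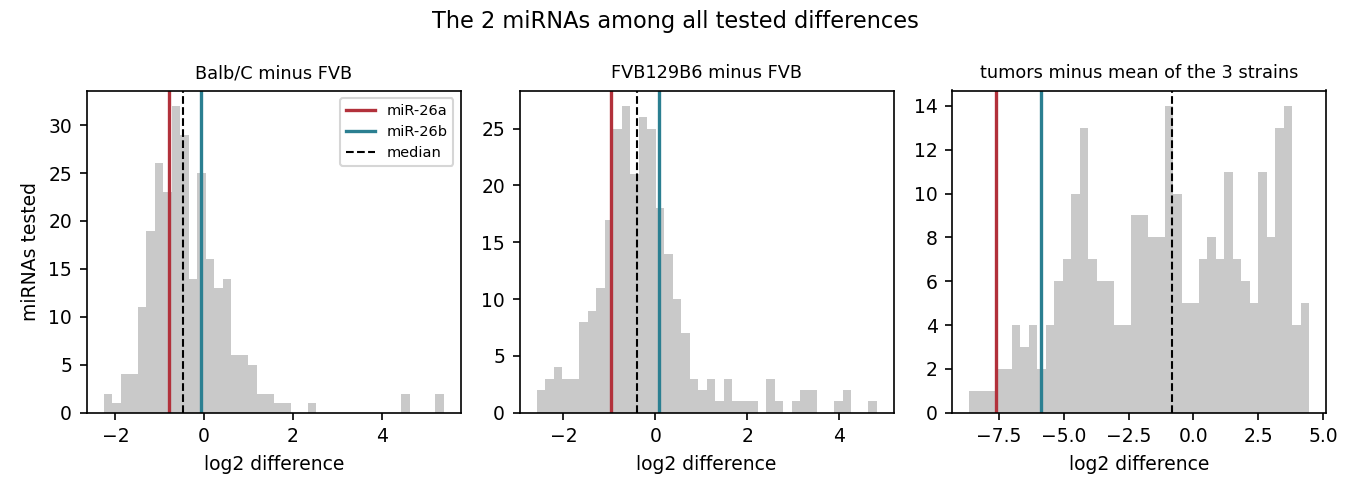
Histograms of the log2 differences of all 261 tested miRNAs for Balb/C minus FVB glands, FVB129B6 minus FVB glands, and C3(1)/Tag tumors minus the mean of the 3 strains. Vertical lines mark miR-26a, miR-26b and the median, which lies between the 2 members in both comparisons of strains and above both in the comparison with tumors, where both members were at background.

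The strain calls depended on how the arrays were scaled. Scaled on the 75th percentile of each array, the median of all tested miRNAs moved to -0.05 in Balb/C minus FVB and -0.03 in FVB129B6 minus FVB, and miR-26a was -0.37 (adjusted p = 0.126, limma) and -0.60 (adjusted p = 0.0289, limma). The split of all called miRNAs moved with it, from 15 higher and 84 lower to 31 higher and 16 lower in the former and from 21 higher and 82 lower to 40 higher and 43 lower in the latter. The call of miR-26a was thus kept in FVB129B6 only. It was lost in both strains after quantile normalization, normexp background correction, division by the red signal and scaling on the miRNAs that every array called well above background. Without any scaling the direction of miR-26a turned, to 0.55 and 0.45, neither called. Unscaled, miR-26b was higher by 1.28 in Balb/C (adjusted p = 0.0125, limma) and by 1.50 in FVB129B6 (adjusted p = 0.00553, limma), beside medians of 0.87 and 1.02 over all tested miRNAs.

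The unscaled signals were read as well. The log2 green intensity of miR-26a was 16.19 and 15.85 in FVB, 16.47 to 16.73 in Balb/C and 16.27 to 16.64 in FVB129B6 glands. That of miR-26b was 14.32 and 13.07 in FVB, 14.88 to 15.18 in Balb/C and 15.16 to 15.21 in FVB129B6 glands. Both members were dimmest on the FVB arrays, which also had the lowest array medians.

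**Figure D4:**
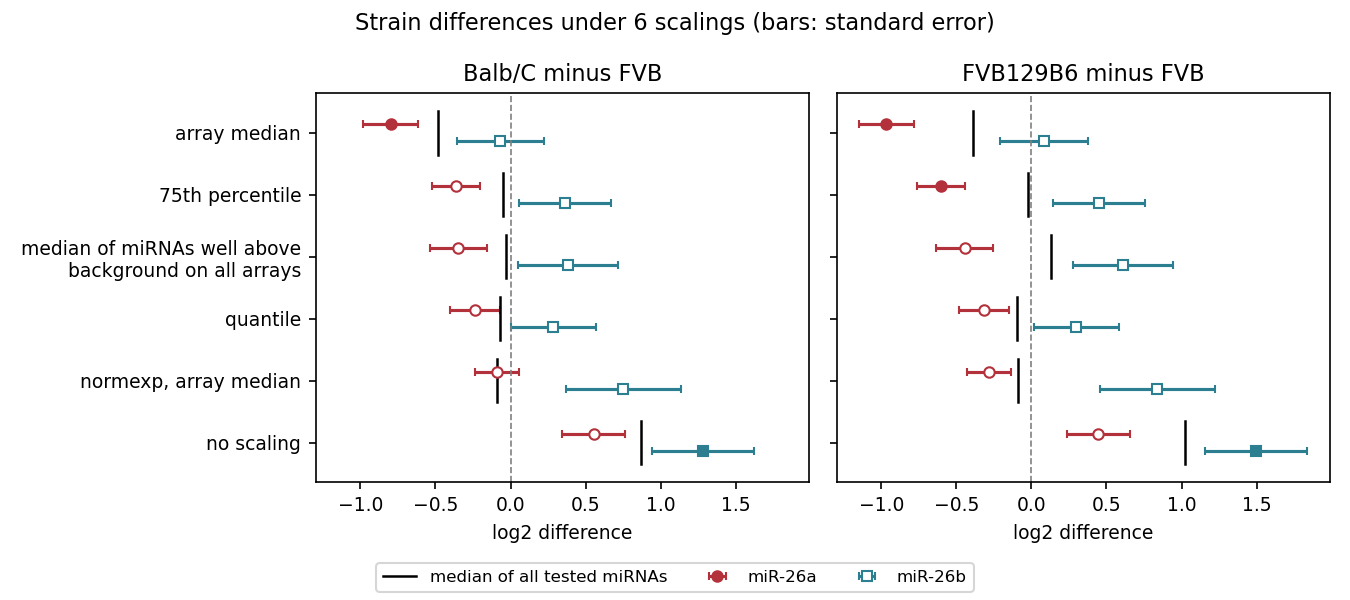
Log2 differences of miR-26a (circles) and miR-26b (squares) from FVB glands, with standard errors, under several scalings of the arrays. Filled symbols have an adjusted p under 0.05 in limma, and black ticks mark the median of all tested miRNAs. miR-26a lies left of miR-26b in every row, while the place of both relative to 0 moves with the scaling.

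A scale factor of an array cancels in the difference between the 2 members on that array, which measures unequal change of the members and not which is more abundant. miR-26a minus miR-26b was 1.87 and 2.78 on the FVB arrays. It was 1.65, 1.55 and 1.58 on the Balb/C arrays and 1.11, 1.43 and 1.28 on the FVB129B6 arrays. The 3 strains did not overlap, with FVB highest and FVB129B6 lowest. On the slide, FVB129B6 arrays lay in columns 1 and 2, Balb/C arrays in columns 2 and 3 and FVB arrays in column 4. The order of the strains follows that of the columns, so strain and place on the slide cannot be told apart. How many other pairs of miRNAs separate the strains in this way was not computed. Strain means were 2.32 ± 0.64 (SD, n = 2), 1.59 ± 0.05 (SD, n = 3) and 1.27 ± 0.16 (SD, n = 3). An exact permutation test of the strain labels on the sum of squares between strains gave p = 0.00357, the smallest that 560 relabelings allow because Balb/C and FVB129B6 have equal numbers of arrays. Between FVB and FVB129B6 the difference was 1.05, and it was 0.60 without FVB replicate 2 and 1.51 without FVB replicate 1. Each pair of strains gave an exact two-sided permutation p of 0.1, the smallest its numbers of arrays allow and also the value adjusted over the 3 pairs. FVB stayed above both other strains with quantile normalization of all 11 arrays, with normexp and with the ratio to the red channel. With quantile normalization the lowest FVB difference was 1.80 and the highest Balb/C difference 1.75. With the ratio all were negative, -0.22 and -0.10 in FVB, -0.44 to -0.28 in Balb/C and -0.64 to -0.48 in FVB129B6. Balb/C and FVB129B6 overlapped with quantile normalization and with normexp, and did not overlap with the ratio.

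**Figure D5:**
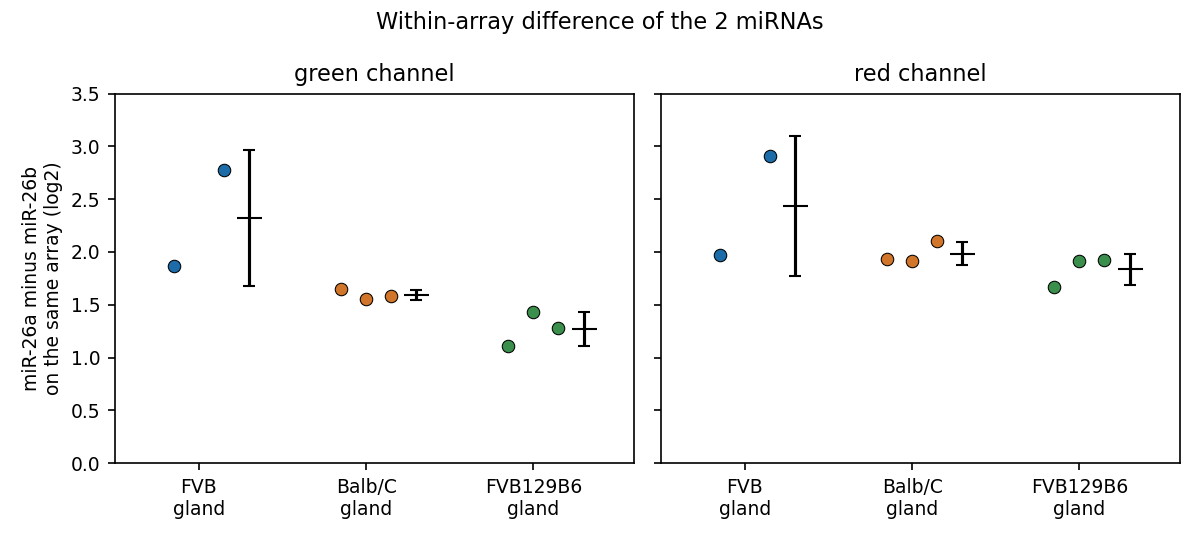
Difference between miR-26a and miR-26b on the same array (log2), in the green channel used throughout and in the red channel, for the 8 gland arrays, with strain mean and SD beside the points. In green the 3 strains do not overlap, and in red FVB replicate 2 stands alone at 2.90 while the other 7 arrays lie between 1.67 and 2.11.

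Markers of other cells moved with strain beside these results, and their part in the values of miR-26a and miR-26b was not tested. Skeletal muscle miRNAs were called higher than in FVB in both other strains, 3 of 3. Their median was 5.32 in Balb/C and 4.15 in FVB129B6. Among 4 listed, 3 matched an array entry exactly or with an arm suffix, and the entry miR-133a* was not taken. Of all 261 tested miRNAs, 15 were called higher in Balb/C and 21 in FVB129B6. A summed level, here and below, is the log2 of the sum of the unlogged levels of a list, so its brightest miRNAs weigh most. That of the skeletal muscle miRNAs was 3.64 to 6.02 in FVB, 9.17 to 9.97 in Balb/C and 8.45 to 8.62 in FVB129B6. Erythroid miRNAs went the other way, with a summed level of 9.53 to 9.61 in FVB, 7.67 to 8.72 in Balb/C and 6.83 to 7.39 in FVB129B6. Of these 3, 1 was called lower in Balb/C and 3 in FVB129B6, beside 32.2% and 31.4% of all tested miRNAs. Epithelial miRNAs, which mark the ducts and alveoli of the gland, were all 7 well above background on the 8 gland arrays, and their summed level overlapped, at 8.77 to 9.80 in FVB, 8.06 to 8.94 in Balb/C and 8.90 to 9.27 in FVB129B6. Of the 7, 2 were called lower in Balb/C and 0 in FVB129B6 by limma, beside the same 32.2% and 31.4%. Calls and sums of the lists, here and below, rest on array-median scaling and were not computed under other scalings.

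Leukocyte miRNAs (4 of 5 matched by name) had no call in either strain by limma. They summed to 5.93 to 6.16 in FVB, 5.27 to 8.40 in Balb/C and 5.33 to 5.68 in FVB129B6. Stromal and myoepithelial miRNAs (4 of 4) had no call either and summed to 9.57 to 10.21 in FVB, 9.12 to 9.54 in Balb/C and 9.18 to 9.43 in FVB129B6. The single endothelial entry matched, of 2 listed, was miR-126-5p, well above background on 6 of the 8 gland arrays and called in neither strain. Over all 261 tested miRNAs, 37.9% were called in Balb/C minus FVB and 39.5% in FVB129B6 minus FVB, in either direction.

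miRNAs placed with miR-26 in mammary development, miR-30b, miR-30c and miR-193, were also read from the same fit. In Balb/C minus FVB, 3 of 3 were called lower, with a median of -0.98 against -0.48 over all tested miRNAs. In FVB129B6 minus FVB, 2 of 3 were called lower, with a median of -1.04 against -0.39. Over all tested miRNAs, 32.2% were called lower in the former and 31.4% in the latter. miR-30c had the differences closest to those of miR-26a in FVB129B6, -1.04 (standard error 0.16, adjusted p = 0.00363, limma), and it was -0.98 (standard error 0.16, adjusted p = 0.00559, limma) in Balb/C. miR-193 had -1.43 (standard error 0.31, adjusted p = 0.0111, limma) in Balb/C and -1.33 (standard error 0.31, adjusted p = 0.0116, limma) in FVB129B6. miR-30b had -0.60 (standard error 0.17, adjusted p = 0.0244, limma) in Balb/C and -0.44 (standard error 0.17, adjusted p = 0.0650, limma) in FVB129B6, the latter not called.

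Because virgin glands are rich in fat and the fat content of a gland can vary, miRNAs of fat cells were listed too, miR-193 among them again. Of 6, 3 were called lower in Balb/C and in FVB129B6, miR-103, miR-107 and miR-193 in both, and the medians of the list were -1.22 and -1.08. The summed level was 9.99 to 10.05 in FVB, 8.96 to 9.28 in Balb/C and 9.09 to 9.29 in FVB129B6, higher on both FVB arrays than on the others. The same held for the sum over miR-30b, miR-30c and miR-193 and for the stromal and myoepithelial sum above. The fat-cell list shares miR-193 with the former and miR-143 with the latter, so these sums are not separate. Of all tested miRNAs, 45.2% and 49% were set apart from FVB in this direction. The 3 of 6 called stand beside 32.2% and 31.4% of all tested miRNAs called lower. The part of fat in the level of miR-26a was not tested.

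Among 203 other miRNAs well above background on all 8 gland arrays, the 5 whose levels correlated best with miR-26a over these arrays were miR-186 (Pearson r = 0.99), let-7g (0.99), miR-24 (0.97), miR-212 (0.96) and miR-23b (0.96). Those for miR-26b were miR-7 (0.93), miR-140 (0.90), miR-15a (0.89), miR-487b (0.78) and miR-32 (0.77). No miRNA was in both sets. The levels of miR-186 show the pattern of the first set, with 1.77 and 1.71 in FVB, 0.63, 1.17 and 0.42 in Balb/C and 0.30, 0.31 and 0.52 in FVB129B6. The levels of miR-7 show that of the second, with 0.65 and -0.17 in FVB, 0.16, 0.82 and 0.15 in Balb/C and 0.72, 0.32 and 0.75 in FVB129B6. Between the 2 members themselves r was 0.083, and miR-26b ranked 150 among the 203 for miR-26a. These are descriptions over 8 arrays in 3 strains that share a slide and the scaling. With the 75th percentile, 3 of the 5 for miR-26a and 5 of the 5 for miR-26b were again among the 5 highest, and with quantile normalization 1 and 4 were. With the 75th percentile, r between the members was -0.29.

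In the C3(1)/Tag tumors, the measured levels were -0.32, 0.20 and 0.31 for miR-26a and -0.05, 0.24 and 0.04 for miR-26b. All lay near the array median and below every gland level, a direction in which 46.4% of the 261 miRNAs tested did not overlap. The tumor means were 0.07 ± 0.34 (SD, n = 3) and 0.08 ± 0.15 (SD, n = 3). The median spot intensity of the tumor arrays, 125 to 170, was near that of their own negative controls, 117 to 163, so a level of 0 there is close to background. The program had replaced 9 of 12 miR-26a spots and 8 of 12 miR-26b spots by a surrogate value. Its green dye factor was 31.7 to 55.7 on the tumor arrays and 4.89 to 6.39 on the gland arrays.

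Only a bound on the difference can therefore be given, for which a tumor array takes the dimmest miRNA it called well above background, or the member itself where that is brighter. Against all 8 glands, miR-26a with a mean of 7.61 was at least 56.2-fold lower in the tumors, and miR-26b with a mean of 5.95 was at least 17.8-fold lower. Against the FVB glands alone, the strain of the tumors, the bounds were at least 88.9-fold and at least 17.8-fold lower. Among the array median, the 75th percentile, scaling on miRNAs well above background throughout, quantile normalization, normexp and no scaling, quantile normalization gave the smallest bounds, at least 6.09-fold and 1.88-fold lower against all glands and at least 7.25-fold and 1.64-fold lower against FVB. In limma's contrast with the mean of the 3 strains, 90.4% of the 261 miRNAs were called, 52.5% as lower. In that with FVB glands, which uses the same tumor arrays and 2 of the same gland arrays, 88.1% were called, 52.5% as lower. Both members entered these fits through the gland arrays alone. The adjusted p of 4.32e-11 for miR-26a and 7.6e-10 for miR-26b against the strains, and of 3.96e-10 and 1.33e-08 against FVB, thus set gland signals against tumor background and measure no level in the tumors. Divided by the red signal, for which no bound was computed, miR-26a was -1.16 (adjusted p = 0.00118, limma) and miR-26b -0.30 (adjusted p = 0.0846, limma) against the strains. miR-26b was thus no longer called. On the tumor arrays green was at background for both members, and most or all of their red spots were not well above it. These ratios therefore measure no level in the tumors either.

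The 3 miRNAs placed with miR-26, all well above background on the 8 gland arrays and on no tumor array, therefore have no measured level in the tumors either. Against the mean of the strains, 7 of 7 epithelial, 4 of 4 stromal and myoepithelial, 5 of 6 fat-cell, 3 of 3 erythroid, 3 of 3 skeletal muscle and 2 of 4 leukocyte miRNAs were called lower, most of them not well above background on all tumor arrays. Against FVB these counts were 7, 4, 6, 3, 1 and 2, and 1 skeletal muscle miRNA was called higher. In either contrast 52.5% of the 261 tested miRNAs were called lower. Where a miRNA was at background in the tumors, its call set gland signal against that background. Such calls measure no level in the tumors. Only 1 epithelial and 1 stromal miRNA, miR-205 and miR-145, were well above background on all 3 tumor arrays. The endothelial entry was called higher in both contrasts without being well above background on any tumor array. Of the 261 tested miRNAs, 99 were called higher against the mean of the strains and 93 against FVB. The part of these cells in the values of the members was not tested. Slide, program version and tissue cannot be told apart in these comparisons. As neither member was measured above background in the tumors, their difference on the tumor arrays, -0.27, -0.04 and 0.28, carries no test.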

How the data were processed

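The sources describe total RNA labeled with Hy3 and/or Hy5 and hybridized to a custom Agilent array with 4 spots for each mature miRNA. The authors deposited, for each of 11 scans, green and red intensities that the Feature Extraction program had background subtracted and dye normalized, with spot calls. A deposited table of log2 values for the same spots equals the log2 green intensity after 1 constant per array (SD 0 over spots). No array holds counts, and the number of arrays limits the precision.

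Here the array median was subtracted from log2 green intensities, in keeping with the global median normalization in the methods, outlier spots were left out, and each miRNA took the mean of its spots. A miRNA was well above background on an array if 50% of its spots were called so, and was tested if this held on at least 3 arrays of the fit, 261 miRNAs in either fit. The MAS5 filter of the methods could not be repeated. Strains (8 arrays) and tumors (11 arrays, 4 groups) were fitted with limma, with Benjamini-Hochberg adjustment over all tested miRNAs at 0.05. The methods name no test for strains. The within-array difference was tested by exact permutation.

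The members, lists and rules were chosen with earlier results of these data known. Named besides the members were the 5 miRNAs most correlated with each over the glands, miR-30b, miR-30c and miR-193, the fat-cell list (miR-143, miR-103, miR-107, miR-378, miR-365, miR-193), 6 marker lists, and probes within 4 base edits. miR-186 and miR-7 were chosen as examples for being first in rank. Sequences and gene positions are RefSeq's, GRCm38.p6, and both members matched. Alternatives were other scalings, background corrections, filters, a floor, outlier spots kept, green over red, blocks, each array left out, averaged Balb/C arrays, an intensity trend and all arrays in 1 fit.

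On simulated data of 261 miRNAs with 50 changed, the contrast of Balb/C with FVB found 46% of log2 changes of 1 and 84% of changes of 2, and that of tumors with glands 70% and 100%. How many changes are found in miRNAs at background on the tumor arrays, as both members were, was not tested. The same holds for other scalings of the arrays. R 4.3.3, limma 3.58.1, Python 3.11.15, numpy 2.4.6, pandas 2.3.3 and matplotlib 3.10.9 were used.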

Additional observations from a re-analysis of the deposited data

Results flagged for a closer look

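The red channel of the gland arrays held signal for both members and is listed here because the main comparisons do not use it. It entered only as the divisor in the alternative of green over red. The sample labels name only Hy3, and what was labeled in red is not given in the sources used here. All 4 spots of each member were well above background in red on each of the 8 gland arrays. Red levels, scaled on the array median, ran from 6.76 to 7.14 for miR-26a and from 4.24 to 5.21 for miR-26b, and the lowest miR-26b level was that of FVB replicate 2, as in green. The red difference between miR-26a and miR-26b was 1.97 and 2.90 in FVB, 1.92 to 2.11 in Balb/C and 1.67 to 1.92 in FVB129B6, so that the strains overlapped. On the tumor arrays 2 of 12 miR-26a spots and 0 of 12 miR-26b spots were well above background in red. Groups of 2 or 3 arrays were too small for a search for outlying arrays.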

How the results depend on the processing

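Of 306 values recomputed under alternatives, 272 changed neither direction nor call. The cause of the change in the others was not tested. In each tumor contrast, 25 of 25 values of miR-26a and 24 of 25 of miR-26b were unchanged, with both members at background there. The deposited log2 values, also counted, equal the levels used here up to 1 constant per array. The total thus does not measure how stable the strain results are. For miR-26a the adjusted p of the F-test (0.0103) became 0.0552 with the 75th percentile, 0.196 with scaling on miRNAs that every array called well above background, 0.309 with quantile normalization, 0.254 with normexp, 0.226 with green over red and 0.101 without normalization. Its difference between Balb/C and FVB became, in that order, -0.37, -0.35, -0.24, -0.092, -0.16 and 0.55, and that between FVB129B6 and FVB -0.60 (still called), -0.44, -0.31, -0.28, -0.37 and 0.45. The difference of miR-26b between Balb/C and FVB (-0.07) became 0.36, 0.38, 0.29, 0.75, 0.046 and 1.28 in that order. Without normalization its difference between FVB129B6 and FVB was 1.50 and its F-test gave an adjusted p of 0.0115. With the slide row as a block its 3 strain differences were 0.020 (Balb/C minus FVB), -0.0019 (FVB129B6 minus FVB) and 0.022 (Balb/C minus FVB129B6), the last 0.019 with green over red. Green over red also took the call from miR-26b in the tumors, at -0.30 against the mean of the strains and -0.27 against FVB. On the tumor arrays miR-26b was at background in both channels. With each array left out, miR-26a kept every call (F-test 0.0108 to 0.0468, Balb/C -0.93 to -0.73 and FVB129B6 -1.02 to -0.94 against FVB), and Balb/C minus FVB129B6 was 0.036 to 0.23. miR-26b ran from -0.50 to 0.37 and from -0.35 to 0.52 against FVB, the ends being without FVB replicate 2 and without FVB replicate 1, from -0.31 to -0.060 between Balb/C and FVB129B6, and from 0.295 to 0.971 in the F-test. Where 1 FVB array was left alone, its spread was taken from the other strains. The within-array difference between FVB and FVB129B6 ran from 0.60 to 1.51. With the tumors at background, only the bounds given above describe their differences. After removal of group means, same-numbered gland arrays correlated at -0.28 to 0.42 over 7 pairs and different-numbered ones at -0.51 to 0.28 over 14 pairs. In such small groups these values depend on each other, so they cannot decide whether the replicate numbers pair arrays. With the replicate block, miR-26a had an adjusted p of 0.0344 in the F-test, -0.79 and -0.96 against FVB, and no call of either member changed. The filter on every array left no tumor comparison of the members, and no alternative was run for their difference between tumors and glands.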

Other observations

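The 2 FVB arrays differed from each other by miRNA, a comparison made after the values were seen. FVB replicate 2 minus replicate 1 was -0.87 for miR-26b and 0.03 for miR-26a, against a median of 0.17 over 204 miRNAs well above background on all glands, and 18 of the 204 lay below miR-26b. In the first 20 bases of the probe, G and C made up 35% for miR-26b and 45% for miR-26a. Over the 52 miRNAs with at most 40% the median difference was -0.05, and over the other 152 it was 0.24. Across the 204 miRNAs, which share both arrays, the correlation of this difference with the G and C percentage was weak (Pearson r = 0.11).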
